A study of Mus musculus with 207 samples.

Results

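Genes of drug and xenobiotic metabolism, 8 of the 55536 genes counted, were followed in jejunum and liver of C57BL/6 mice fed 6 diets. They were taken by name: the cytochrome P450 enzymes Cyp3a11, Cyp3a13 and Cyp3a25, the receptors Nr1i2 (PXR) and Nr1i3 (CAR), the P450 reductase Por, and the enzymes Cyp1a1 and Cyp1a2. No threshold on expression was applied, though the list was drawn up with earlier results of these data known. The diets are labelled CAS-30 or WPI-30, taken to mean casein and whey protein isolate, each with FAT-20, FAT-40 or FAT-55. The labels give no unit for these levels and no sex, age, time of sampling or batch, and all 6 diets carry the same protein level of 30. Each tissue had 11 libraries on CAS FAT-20, 12 on CAS FAT-40, 11 on CAS FAT-55 and 12 on each of the 3 WPI diets, 1 library per mouse and tissue. All libraries had Ddx3y, a Y-linked gene, at 46.0 CPM (counts scaled to a library of 1e6 reads) or more and Xist at 1.19 CPM or less. This matters for liver P450 genes, several of which differ between male and female mice.

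PXR and CAR are nuclear receptors that bind DNA with the partner RXR and switch on genes for the oxidation, conjugation and export of foreign chemicals, bile acids and steroids. Cyp3a enzymes are the best known PXR targets and are abundant in liver and in the absorptive enterocytes of the small intestine. Por passes electrons from NADPH to every microsomal P450, so these enzymes depend on it. Cyp1a1 and Cyp1a2 answer instead to the aryl hydrocarbon receptor. Cyp1a2 is expressed in liver without an inducer, whereas Cyp1a1 is normally very low.

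All genes are given on GRCm38. The Cyp3a genes and Por lie on chromosome 5, Cyp3a11 at chr5:145854426-145879964, Cyp3a25 at chr5:145977194-146009618, Cyp3a13 at chr5:137892932-137921619 (all on the minus strand) and Por at chr5:135670033-135735326 (plus strand). Cyp1a1 at chr9:57687928-57703824 (plus) and Cyp1a2 at chr9:57676937-57683703 (minus) are head-to-head neighbours. Nr1i2 is at chr16:38248323-38294824 (minus) and Nr1i3 at chr1:171213970-171220701 (plus). Of the 4414 exonic bases of Nr1i3, 3304 are shared with Tomm40l on the opposite strand. No strand setting is stated, so reads in these bases were either separated by strand or left uncounted as ambiguous. Ambiguous reads made up 5.23% in the jejunum and 5.2% in the liver, and the level of Nr1i3 may therefore be too low. Cyp3a genes resemble each other closely, and 8% of the jejunum and 7.71% of the liver reads fell in several places and were counted for no gene, so their levels depend on the reads that can be placed.

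The windows 250 bases before to 50 bases after the RefSeq start (GRCm38.p6) were matched for 8 of 8 genes. Those of Cyp3a11 and Cyp3a25 are shown because both hold the half-site AGCTCA followed by AGGTCA, a direct repeat of the general kind that nuclear receptors bind with RXR. The 4-base gap in Cyp3a11 is among the spacings known for PXR and CAR, whereas the 1-base gap in Cyp3a25 is the spacing typical of HNF4A and of PPAR with RXR. They are written 5′ to 3′ on the gene's strand, from chr5:145879805-145880104 and chr5:146009569-146009868, and capitals mark the motif matches.
Cyp3a11: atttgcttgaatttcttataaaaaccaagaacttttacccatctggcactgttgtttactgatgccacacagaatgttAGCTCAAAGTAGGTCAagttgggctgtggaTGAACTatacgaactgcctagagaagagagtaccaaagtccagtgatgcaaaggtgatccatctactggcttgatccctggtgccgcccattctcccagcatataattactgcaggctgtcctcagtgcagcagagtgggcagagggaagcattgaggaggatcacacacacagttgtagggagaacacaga
Cyp3a25: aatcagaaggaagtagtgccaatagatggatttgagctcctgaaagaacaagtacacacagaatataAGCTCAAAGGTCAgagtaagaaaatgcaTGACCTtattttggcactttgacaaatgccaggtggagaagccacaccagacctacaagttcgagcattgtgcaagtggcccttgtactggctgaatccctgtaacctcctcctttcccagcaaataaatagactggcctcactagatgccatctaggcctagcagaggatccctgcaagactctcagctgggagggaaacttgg
The motifs were searched on both strands. Cyp3a11 held AGCTCANNNNAGGTCA from position -172, counted from the start site. This spaced motif includes an AGGTCA match at -162, and AGTTCA was present on the other strand at -142. Cyp3a25 held AGCTCANAGGTCA from -183, which includes AGGTCA at -176, and a further AGGTCA on the other strand at -155. AGGTCA occurred in 16.3% and AGTTCA in 14% of 32851 windows of this length, while the motif with a 4-base gap occurred in 5 windows (0.0152%) and that with a 1-base gap in 8 (0.0244%). The spaced motifs were picked after these sequences had been read, so their rarity is a description. The core of the aryl hydrocarbon receptor element, GCGTG, was at -54 in Cyp1a1 and at -202, -62 and -24 in Por, and in 32.4% of all windows. None of the 5 motifs matched in the windows of Cyp3a13, Cyp1a2, Nr1i2 or Nr1i3.

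In the liver, Cyp3a25 was the most abundant member per kilobase of transcript (median 378 CPM per kb), followed by Cyp3a11 at 293, Por at 203, Cyp1a2 at 155, Cyp3a13 at 63.0, Nr1i3 at 44.6, Nr1i2 at 36.2 and Cyp1a1 at 0.238. These values use the length of the principal transcript. Per kilobase of all annotated exons Cyp3a25 still led the liver at 363, but Cyp1a2 at 149 came before Cyp3a11 at 135 and Por at 133, and Nr1i2 at 36.2 before Nr1i3 at 14.3. In the jejunum the order was Cyp3a13 at 325, Cyp3a25 at 304, Cyp3a11 at 250, Por at 137, Nr1i2 at 47.6 and Nr1i3 at 12.7 CPM per kb, an order that all annotated exons did not change. Cyp3a13 thus led the jejunum list and stood below Por and Cyp1a2 in the liver. In the jejunum, Cyp1a1 had 31 reads in all, spread over 20 of the 70 libraries, and Cyp1a2 had 2 reads in 2 libraries. No library held more than 5 reads of Cyp1a1 or more than 1 of Cyp1a2, and 3 reads in a library correspond to 0.113 to 0.171 CPM there. Both failed the filter on low counts and are described by these counts alone.

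Tissue markers matched the labels. The 12 enterocyte markers summed to between 29838 and 72094 CPM in the jejunum libraries and to between 10719 and 18399 CPM in the liver. Few of them carry the liver sum, since 7 of the 12 passed the filter there. Their mean log2 CPM was 1.74 to 1.94 over the liver diets and 10.97 to 11.36 over the jejunum diets. The 10 hepatocyte markers summed to between 81992 and 169022 CPM in the liver and to between 1130 and 1760 CPM in the jejunum. One liver library, WPI FAT-40 replicate 2, held pancreas markers at 1121 CPM against a median of 14.96 over all livers. Since these are bulk samples, fewer cells of a type and less RNA per cell cannot be told apart. Reads on genes ranged from 17.5 to 23.8 M (M, 1e6 reads) in the jejunum and from 21 to 41 M in the liver.

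In the liver, Cyp3a11 was higher on CAS FAT-55 than on CAS FAT-20 and on each of the 3 WPI diets, while no rise with fat was called on WPI. Cyp3a11 oxidises many drugs and steroids and is a main murine counterpart of human CYP3A4. On CAS FAT-20 it ranged from 451 to 794 CPM with a median of 599.6 (mean 596 ± 105, SD, n = 11). On CAS FAT-55 it ranged from 687 to 1563 CPM with a median of 1354 (mean 1261 ± 284, n = 11). Of the CAS FAT-55 livers, 11 of 11 were above the CAS FAT-20 median and 10 above its highest value. The difference was 1.08 ± 0.24 on the log2 scale (fitted value ± SE, edgeR quasi-likelihood test, adjusted p = 0.000192). On CAS FAT-40 the range was wide, 319 to 1316 CPM with a median of 849.9, and neither the step from FAT-20 (0.45 ± 0.23, adjusted p = 0.14) nor that to FAT-55 (0.63 ± 0.23, adjusted p = 0.108) passed the test. The animal identifiers fall into 24 stems (all but the final digit), whose meaning the labels do not give, and mice of 1 stem may not be independent. With counts summed by stem the FAT-55 against FAT-20 rise was 1.04 (adjusted p = 0.0196) and remained called.

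On WPI the liver Cyp3a11 groups overlapped throughout. WPI FAT-20 ranged from 273 to 1460 CPM (median 561), WPI FAT-40 from 183 to 1192 (median 494) and WPI FAT-55 from 437 to 1384 (median 682). FAT-55 against FAT-20 on WPI gave 0.12 ± 0.23 (adjusted p = 0.735). At FAT-55, WPI livers were lower than CAS livers by -0.85 ± 0.23 (adjusted p = 0.00896), with 11 of 12 below the CAS median and 7 below the lowest CAS liver. That call was lost with counts summed by stem (adjusted p = 0.165) and held with the stem as a random effect (0.0382). The difference between the proteins in the FAT-55 against FAT-20 response was -0.96 ± 0.33 (adjusted p = 0.0601), which misses the threshold of 0.05, so a different response of Cyp3a11 on the 2 proteins was not called. With DESeq2 it was (-0.96, adjusted p = 0.0423), and it passed without any 1 of 3 of the 46 libraries (lowest 0.0345 without WPI FAT-55 replicate 2). Averaged over fat, WPI against CAS gave -0.37 ± 0.13 (adjusted p = 0.0502), with 27 of 36 WPI livers below the median of CAS at their own fat. Leaving out any 1 of 20 of the 70 libraries in turn brought that p below the threshold (the lowest, 0.0167, without WPI FAT-20 replicate 3), and the highest p was 0.0744 without CAS FAT-40 replicate 6.

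Adipose marker genes moved with these groups, and 3 of the 7 passed the liver's filter on low counts. Fatty hepatocytes also express some of them, such as Cidec. Their summed level had medians of 15.2, 26.5 and 77.6 CPM on CAS from the lowest to the highest fat (lowest and highest library 11.4 and 152 CPM), and of 15.8, 11.8 and 22.5 CPM on WPI. Lymphocyte markers had medians of 18.5, 19.7 and 31.9 CPM on CAS and 23.6, 24.6 and 23.4 on WPI, within 11.02 to 57.2 CPM. None of the 7 adipose or 8 lymphocyte markers was at 0 in all livers. The 8 pericentral hepatocyte markers, from the zone where these P450 enzymes are strongest, had summed medians of 13541, 12781 and 12251 CPM on CAS and 13665, 14314 and 16136 on WPI. Their mean log2 CPM, which weighs each gene alike, ran the other way on CAS (6.49, 6.58 and 6.70) and was 6.43, 6.61 and 6.61 on WPI. The 7 crypt and proliferating cell markers, 5 of which passed the filter, had summed medians of 16.6, 26.2 and 29.3 CPM on CAS and 18.4, 22.1 and 21.1 on WPI, within 13.5 to 41.1 CPM. With the adipose and lymphocyte scores as covariates the Cyp3a11 rise on CAS was 0.55 (adjusted p = 0.214) and the WPI difference at FAT-55 was -0.50 (adjusted p = 0.314), so neither call held. The part of these cells in the result was not tested.

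**Figure D1:**
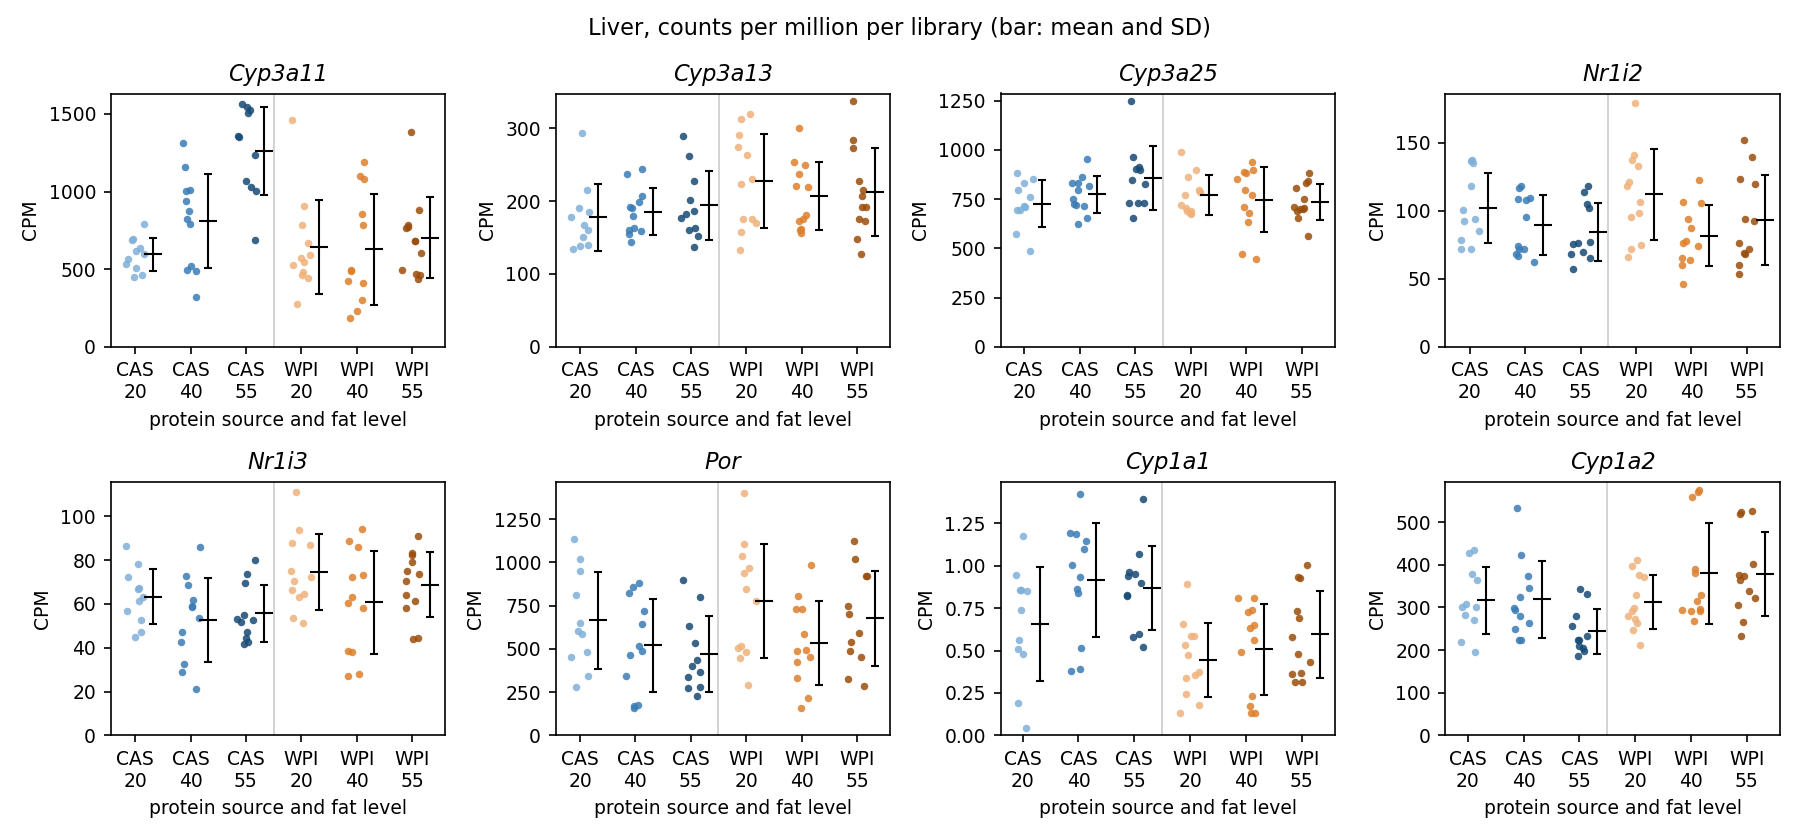
Levels of the 8 genes in liver (y axis, CPM from 0) by protein source and fat level (x axis), 1 point per library, with a bar for the mean and SD of each group. Cyp3a11 on CAS FAT-55 sits mostly above the other diets, and Cyp1a2 on the same diet mostly below the WPI FAT-55 livers.

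The other liver Cyp3a genes varied less. Cyp3a25 was narrow in every diet, with means from 727 ± 119 on CAS FAT-20 to 858 ± 161 CPM on CAS FAT-55, and rose between these diets by 0.24 ± 0.10 (adjusted p = 0.0453), in 10 of 11 livers above the CAS FAT-20 median. That call was lost when any 1 of 13 of the 22 libraries was left out (highest adjusted p = 0.163 without CAS FAT-55 replicate 3). Cyp3a13 ran from 128 to 337 CPM over all livers and passed in no comparison. Averaged over fat its WPI against CAS value was 0.21 ± 0.08 (adjusted p = 0.0655), and leaving out any 1 of 7 libraries brought it below the threshold (lowest 0.0261 without CAS FAT-20 replicate 5).

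Neither liver receptor nor Por passed the test in any of the 12 comparisons. Over all 15 pairs of diets, WPI FAT-20 was higher than CAS FAT-55 for Nr1i2 by 0.41 ± 0.17 (adjusted p = 0.0405) and for Por by 0.72 ± 0.29 (adjusted p = 0.0374), the single pair called for each. For Nr1i3 the same pair differed by 0.42 ± 0.18 (adjusted p = 0.0468), and WPI FAT-20 was also higher than CAS FAT-40 by 0.50 ± 0.17 (adjusted p = 0.0206). Nr1i2 averaged 102 ± 25.7, 89.5 ± 21.9 and 84.3 ± 21.2 CPM on CAS from the lowest to the highest fat, and 112 ± 33.3, 81.8 ± 22.3 and 93.4 ± 32.8 on WPI. Its FAT-40 against FAT-20 value on WPI was -0.45 ± 0.16 (adjusted p = 0.0761), below the threshold without any 1 of 3 of the 24 libraries (lowest 0.0406 without WPI FAT-20 replicate 4). Nr1i3 averaged 63.3 ± 12.7, 52.7 ± 19.1 and 55.6 ± 13.1 CPM on CAS and 74.6 ± 17.5, 60.6 ± 23.5 and 68.8 ± 14.9 on WPI. Tomm40l, the gene overlapping Nr1i3, had a WPI against CAS value of 0.29 (adjusted p = 0.125) beside 0.25 ± 0.10 (adjusted p = 0.0854) for Nr1i3. Por varied widely, from 156 CPM in CAS FAT-40 replicate 7 to 1402 in WPI FAT-20 replicate 9, with a within-diet SD of 0.718 on the log2(CPM + 0.5) scale, the largest of the liver genes on that scale. Measured as the range of diet-centred log2 CPM, Cyp1a1 (4.21) and Cyp3a11 (2.84) spread more widely than Por (2.65).

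Cyp1a2 and Cyp1a1 differed between the proteins in opposite directions in the liver. Cyp1a2, which metabolises caffeine and aromatic amines, ranged on CAS FAT-55 from 186 to 343 CPM (median 225, mean 245 ± 52.8, n = 11). On WPI FAT-55 it ranged from 232 to 526 CPM (median 369, mean 379 ± 98.6, n = 12). The groups overlapped, yet 12 of 12 WPI livers lay above the CAS median and 7 above the highest CAS liver. The difference was 0.63 ± 0.15 (adjusted p = 0.00254). At FAT-20 the means were 317 ± 78.2 CPM on CAS and 312 ± 64.1 on WPI, with a difference of -0.02 (95% interval -0.32 to 0.27, adjusted p = 0.967). Averaged over fat, WPI was higher by 0.29 ± 0.08 (adjusted p = 0.0137), with 24 of 36 livers above the CAS median. With counts summed by stem neither the FAT-55 value (adjusted p = 0.0599) nor the average (0.11) passed, and with the stem as a random effect the FAT-55 value did (0.0159).

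Cyp1a2 fell with fat on CAS, by -0.37 ± 0.15 from FAT-20 to FAT-55 (adjusted p = 0.0391), with 9 of 11 CAS FAT-55 livers below the CAS FAT-20 median. The 10 hepatocyte markers also moved, with a mean log2 CPM of 12.17, 12.02 and 11.85 at rising fat on CAS and 12.18, 12.12 and 12.10 on WPI, and their part in this fall was not tested. On WPI the same step was 0.28 ± 0.14 (adjusted p = 0.147). The difference between these 2 responses was 0.65 ± 0.21 (adjusted p = 0.0437), and in edgeR no other member's fat response was called as different between the proteins, whereas DESeq2 also called Cyp3a11. The fall on CAS was lost without any 1 of 10 of the 22 libraries (highest adjusted p = 0.0909 without CAS FAT-20 replicate 5) and the difference without any 1 of 25 of the 46 (highest 0.0708 without the same library). With the marker scores as covariates, the WPI against CAS value of Cyp1a2 at FAT-55 was 0.38 (adjusted p = 0.201).

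Liver Cyp1a1 was low, with 1 to 45 reads per library and at most 1.43 CPM. Its medians were 0.741, 0.969 and 0.899 CPM on CAS from the lowest to the highest fat, and 0.423, 0.598 and 0.529 CPM on WPI. WPI livers were lower by -0.63 ± 0.16 averaged over fat (adjusted p = 0.00376), with 32 of 36 below the median of CAS at their own fat. With counts summed by stem the adjusted p was 0.0566 and with the stem as a random effect 0.0437. At FAT-40, 12 of 12 WPI livers were below the CAS median and 4 below the lowest CAS liver, with -0.82 ± 0.27 (adjusted p = 0.0472), a call lost without any 1 of 15 of the 24 libraries (highest 0.0959 without WPI FAT-40 replicate 3). Without the liver library high in pancreas markers the FAT-40 value was -0.73 (adjusted p = 0.093) and that call was lost, while the average over fat was -0.60 (adjusted p = 0.00516). Without that library liver Nr1i3 passed for WPI against CAS (0.27, adjusted p = 0.0467).

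Across all genes, 14.7% passed in the average WPI against CAS comparison of the liver, where 2 of the 8 members were called. At the single fat levels, lowest first, the shares were 0.512%, 8.21% and 14.5%, beside 0, 1 and 2 members. FAT-55 against FAT-20 called 43.3% of genes on CAS and 26.6% on WPI, beside 3 and 0 of the 8 members, no larger a share than over all genes. FAT-40 against FAT-20 called 30.2% on CAS and 6.54% on WPI with no member, and FAT-55 against FAT-40 called 3.60% and 2.29% with no member. The difference between proteins in the fat response called 1.49% of genes at FAT-40, with no member, and 6.82% at FAT-55, with 1. In the liver tests with no member called, edgeR gave 0 to 2 members an unadjusted p under 0.05, and DESeq2 also called none.

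In the jejunum, Cyp3a11, Cyp3a13, Nr1i3 and Por were higher on WPI averaged over fat, and Por rose with fat on both proteins. None of the 4 WPI calls held with counts summed by stem (adjusted p from 0.0596 for Cyp3a13 to 0.234 for Nr1i3), and with the stem as a random effect that of Cyp3a13 alone did (0.0313). The rise of Por from FAT-20 to FAT-55 held with counts summed by stem on CAS (adjusted p = 0.0293) and on WPI (0.0466). Por ranged on CAS FAT-20 from 118 to 342 CPM (median 227, mean 226 ± 65.0), on CAS FAT-55 from 236 to 695 (median 386, mean 420.2 ± 163), and on WPI FAT-55 from 293 to 851 (median 521, mean 547 ± 156). All 3 ranges overlapped, with CAS FAT-20 lowest. The fat step from FAT-20 to FAT-55 was 0.89 ± 0.20 on CAS (adjusted p = 0.000626) and 0.76 ± 0.19 on WPI (adjusted p = 0.00157). From FAT-20 to FAT-40 it was 0.76 ± 0.20 on CAS (adjusted p = 0.00298) and 0.41 ± 0.19 on WPI (adjusted p = 0.103). Between CAS FAT-20 and WPI FAT-55, the lowest and highest diets, Por differed by 1.27 ± 0.20 (adjusted p = 5.35e-07). Of the 15 pairs of diets 5 were called, and no 2 diets next to each other in the order of medians were among them (lowest adjusted p = 0.103).

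**Figure D2:**
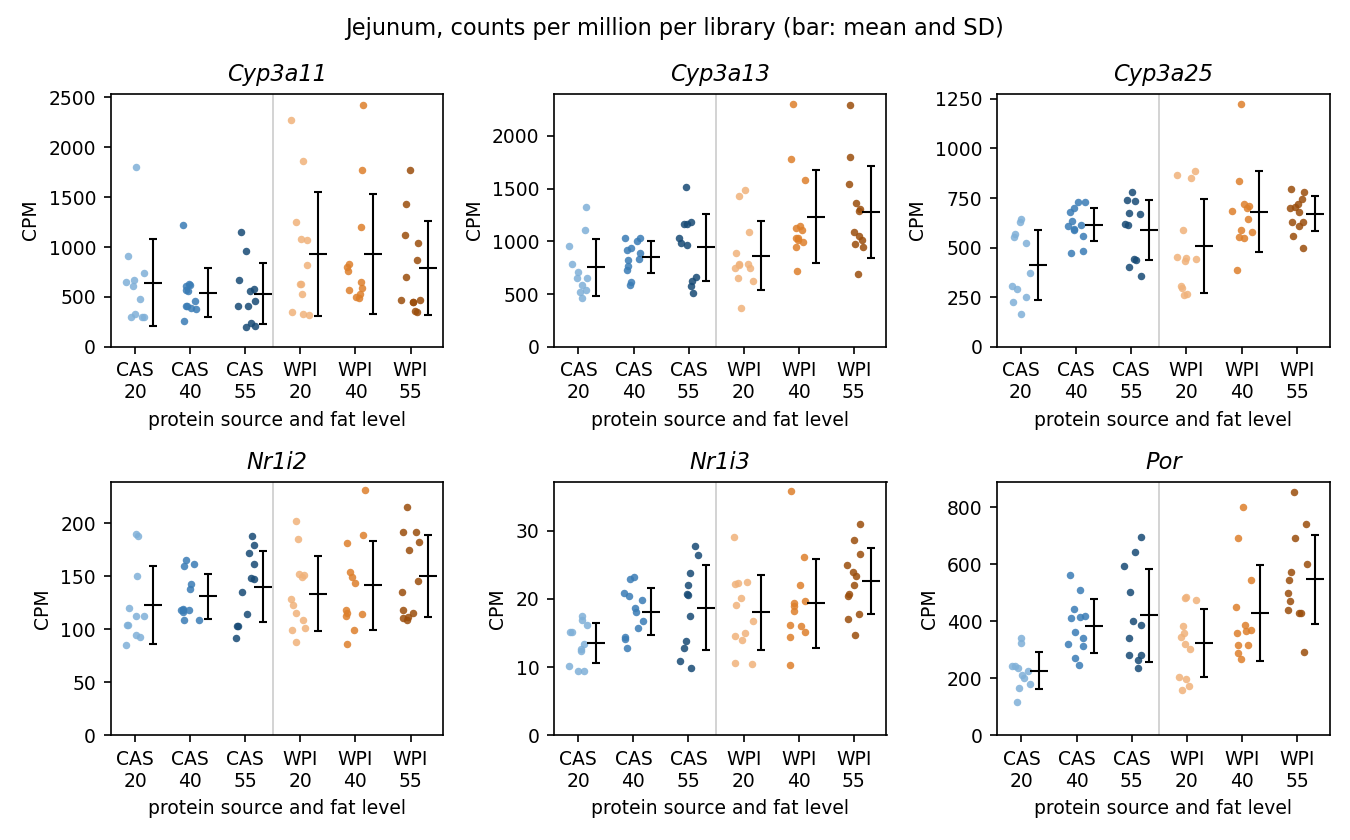
Levels of the 6 tested genes in jejunum (y axis, CPM from 0) by protein source and fat level (x axis), 1 point per library, with a bar for the mean and SD of each group. Por is lowest on CAS FAT-20 (118 to 342 CPM) and highest on WPI FAT-55 (293 to 851 CPM).

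Cyp3a13, the member most abundant in the jejunum, ranged from 462 to 1323 CPM on CAS FAT-20, 584 to 1035 on CAS FAT-40 and 506 to 1513 on CAS FAT-55. On WPI the ranges were 369 to 1489, 716 to 2304 and 693 to 2292 CPM. WPI was higher by 0.39 ± 0.11 averaged over fat (adjusted p = 0.0072), with 30 of 36 libraries above the median of CAS at their own fat. On WPI it rose from FAT-20 by 0.51 ± 0.18 at FAT-40 (adjusted p = 0.0343) and 0.56 ± 0.19 at FAT-55 (adjusted p = 0.015). With counts summed by stem neither rise passed (adjusted p = 0.115 and 0.0602). The first call was lost without any 1 of 9 of the 24 libraries (highest adjusted p = 0.129 without WPI FAT-40 replicate 12), the second without WPI FAT-55 replicate 2 (0.0598). On CAS the steps were 0.17 ± 0.19 and 0.32 ± 0.19, and the difference between proteins was not called (adjusted p = 0.839 and 0.951).

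Cyp3a11 in the jejunum was the most variable member, with a within-diet SD of 0.785 on the log2 scale, and went from 202 to 2427 CPM. Group medians were 610.0, 510.1 and 460.1 CPM on CAS and 724, 707 and 581 on WPI. WPI was higher by 0.62 ± 0.19 averaged over fat (adjusted p = 0.016), with 26 of 36 libraries above the CAS median. The liver value of the same comparison was -0.37, on the other side of 0. A test of this contrast, added after both values had been seen, took jejunum minus liver log2 CPM of each of the 70 mice and permuted the protein labels within fat levels. The WPI against CAS differences were 0.57 in jejunum and -0.46 in liver on that scale, a contrast of 1.03 (adjusted permutation p = 6e-05 over 6 members, from the smallest p that 100000 permutations can give). Over means of the 24 stems it was 1.01 (adjusted p = 0.0091). Cyp3a25 also passed, at 0.28 (adjusted permutation p = 0.018), but not over stem means (0.057), and the other 4 members did not (0.23 to 0.89). In the jejunum Cyp3a11 did not pass for any fat step, and none of its 15 pairs of diets was called.

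Cyp3a25 rose with fat on CAS, though not with counts summed by stem (adjusted p = 0.0809 and 0.0814), from a median of 370.3 CPM at FAT-20 to 611 at FAT-40 (0.58 ± 0.19, adjusted p = 0.0164) and 619.9 at FAT-55 (0.51 ± 0.19, adjusted p = 0.0348). The CAS FAT-20 libraries ranged from 163 to 646 CPM and those of CAS FAT-40 from 473 to 732. On WPI the 2 steps were 0.42 ± 0.18 (adjusted p = 0.0769) and 0.40 ± 0.18 (adjusted p = 0.0844), with 4 and 3 of the 24 libraries whose removal made them pass (lowest 0.0259 and 0.0289, both without WPI FAT-20 replicate 10). The FAT-55 call on CAS was lost without any 1 of 11 of the 22 libraries (highest 0.0865 without CAS FAT-20 replicate 5). WPI against CAS gave 0.21 ± 0.11 (adjusted p = 0.177).

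Nr1i3 encodes CAR, a minor transcript in the jejunum at 9.47 to 35.8 CPM. It rose on CAS from a median of 13.4 CPM at FAT-20 to 18.4 at FAT-40 (0.43 ± 0.16, adjusted p = 0.0431) and 20.5 at FAT-55 (0.47 ± 0.17, adjusted p = 0.0254), and was higher on WPI averaged over fat by 0.26 ± 0.09 (adjusted p = 0.0425), in 24 of 36 libraries. None of these calls held with counts summed by stem or with the stem as a random effect, and with marker covariates the FAT-40 value on CAS turned to -0.076 (adjusted p = 0.900). Removing any 1 of 13 of the 23, 5 of the 22 and 19 of the 70 libraries ended these calls (highest adjusted p = 0.0893 without CAS FAT-20 replicate 5, 0.0646 without CAS FAT-55 replicate 6 and 0.0786 without WPI FAT-40 replicate 12). On WPI, FAT-55 against FAT-20 was 0.32 ± 0.16 (adjusted p = 0.107) and passed only without WPI FAT-20 replicate 10 (0.0437). The WPI against CAS value of Tomm40l was -0.13 (adjusted p = 0.116), of the other sign than that of Nr1i3.

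Nr1i2, which encodes PXR, gave no call in the jejunum, with means between 123 ± 36.9 on CAS FAT-20 and 150.2 ± 38.9 CPM on WPI FAT-55, a WPI against CAS value of 0.11 ± 0.08 (adjusted p = 0.439) and 0 of 15 pairs of diets called. Por was higher on WPI averaged over fat by 0.35 ± 0.11 (adjusted p = 0.0215), in 23 of 36 libraries.

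The jejunum calls stood against a background of 15.3% of all genes for WPI against CAS, where 4 of 6 members were called, all higher (6.5% of all genes were higher). At single fat levels no member was called (6.23%, 0.571% and 3.70% of genes, from the lowest fat to the highest), and 2, 2 and 1 members had an unadjusted p under 0.05 in edgeR. FAT-40 against FAT-20 called 25.1% of genes and 3 members on CAS, and 25.8% and 1 on WPI. FAT-55 against FAT-20 called 27.7% and 3 members on CAS, and 30.8% and 2 on WPI. FAT-55 against FAT-40 (0.0294% and 0.653%) and the differences between proteins (0.0118% and 0%) called no member, and none had an unadjusted p under 0.05. DESeq2 called no member in these 7 tests either.

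**Figure D3:**
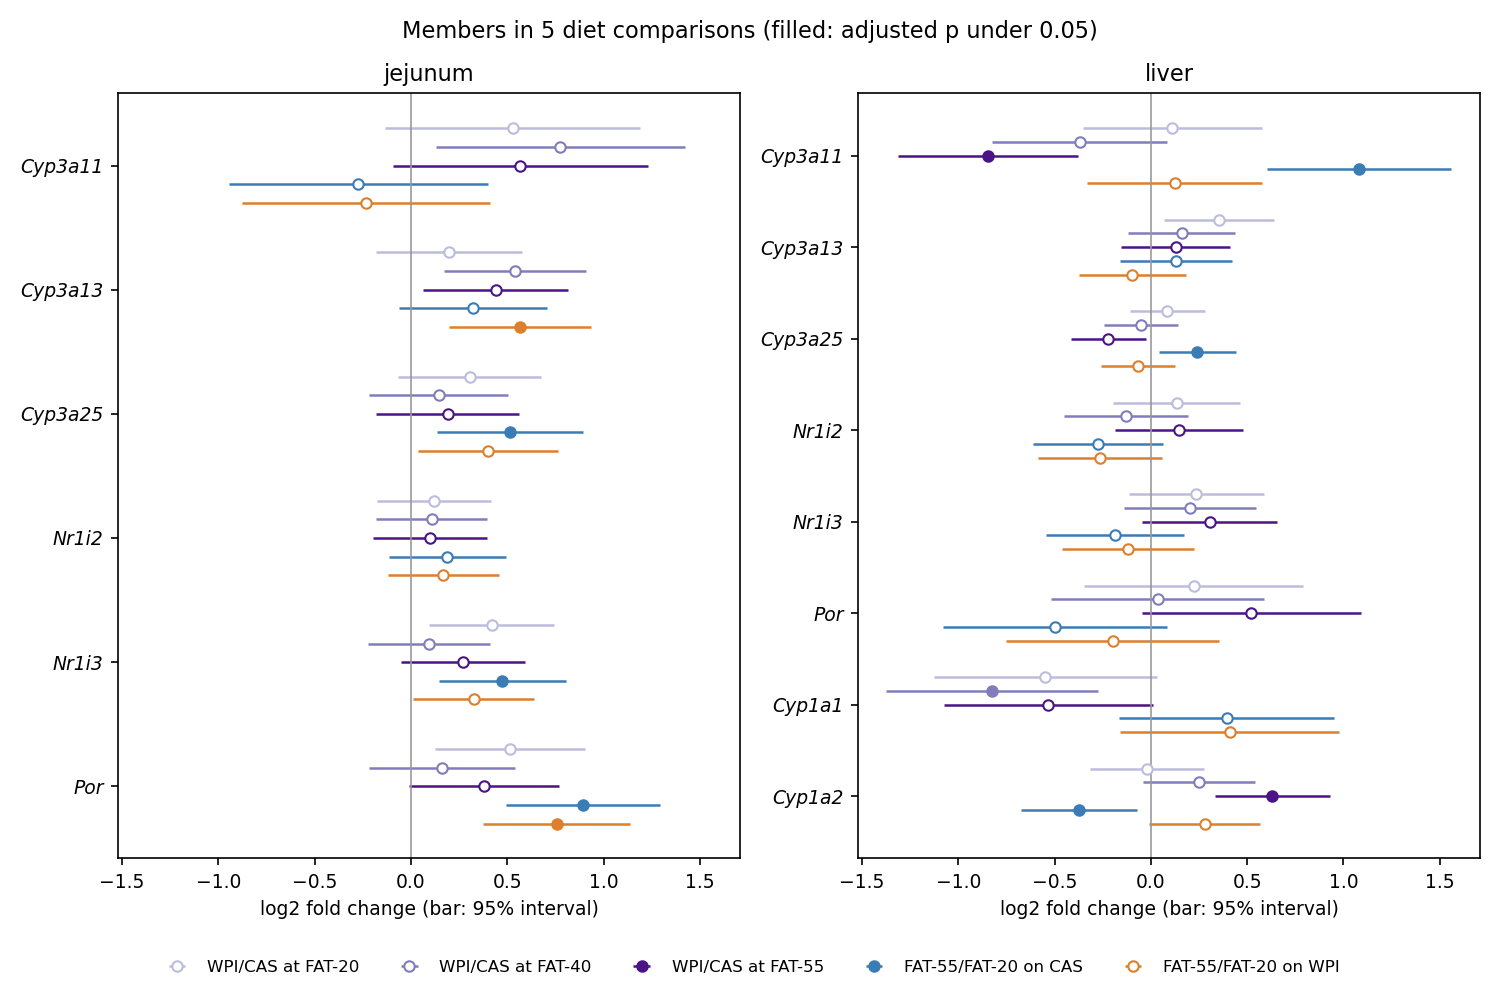
Fitted log2 fold changes (x axis) with 95% intervals for each tested gene in jejunum and liver, for WPI against CAS at each fat level and FAT-55 against FAT-20 on each protein. Filled points passed the edgeR test: in the fat comparisons jejunum Por lies at 0.89 and 0.76 and liver Cyp3a11 at 1.08 on CAS and, unfilled, 0.12 on WPI.

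Cell type markers moved with the jejunum fat groups. The mean log2 CPM of 10 smooth muscle markers was 6.06, 5.13 and 5.30 at rising fat on CAS and 6.27, 5.25 and 5.13 on WPI, and that of 7 adipose markers was 2.41, -1.96 and -1.69 on CAS and 3.18, -1.05 and -1.17 on WPI. The enterocyte score moved less, 10.97, 11.20 and 11.15 on CAS and 11.16, 11.36 and 11.27 on WPI. The lymphocyte score, 3.03, 2.89 and 3.001 on CAS, was 2.31, 2.38 and 1.89 on WPI. Markers of the proximal small intestine summed to medians of 2426, 3463 and 3759 CPM on CAS and 2476, 3959.6 and 4746 on WPI. No marker of these lists was at 0 in all libraries, and over all libraries the smooth muscle sum ranged from 338 to 4204 CPM and the adipose sum from 73.6 to 651. With the smooth muscle and adipose scores as covariates, the Por rise with fat was 0.49 on CAS (adjusted p = 0.251) and 0.30 on WPI (adjusted p = 0.629), and no longer called. All 9 fat calls of members in the jejunum were lost in that fit, those of Cyp3a25 and Nr1i3 on CAS and of Cyp3a13 on WPI among them. The 4 WPI calls held, with differences of 0.75 for Cyp3a11 (adjusted p = 0.00221), 0.44 for Cyp3a13 (0.00214), 0.32 for Nr1i3 (0.00497) and 0.41 for Por (0.00757). The enterocyte score, higher on WPI at each fat level, and the lymphocyte score, lower there, were not covariates. The fit therefore cannot show their part in the WPI calls. In the same fit Cyp3a11, not called otherwise, was lower at FAT-55 than FAT-20 on CAS, by -1.29 (adjusted p = 0.0486). The part of these cells in the result was not tested.

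Genes that work with the members were followed as lists, whose counts stand beside a share called of 15.3% of all jejunum genes for WPI against CAS, 27.7% from the lowest to the highest fat on CAS and 30.8% on WPI. Of the PXR and CAR target list, 21 of 29 genes were tested in the jejunum, and on WPI 11 rose and 3 fell (median 0.35 against -0.01 over all genes). Abcc3, an exporter of conjugates, was among the 3 that fell (-0.39 ± 0.07, adjusted p = 2.55e-05). FAT-55 against FAT-20 called 13 higher and 1 lower on CAS (median 0.64) and 11 and 2 on WPI. Aldh1a1, a retinaldehyde dehydrogenase, rose by 1.93 ± 0.25 and Ugt2b5, a glucuronosyltransferase, by 2.40 ± 0.39 on CAS. In the same CAS comparison 7 of 9 electron donor genes rose and 0 fell, among them Cyb5b (0.59 ± 0.11) and Pgrmc2 (0.66 ± 0.14), and 7 of 9 did on WPI. Of 12 haem genes 5 rose on CAS, including Alas1, the rate-limiting enzyme of haem synthesis (0.40 ± 0.10). Among 15 receptor partners and regulators, 4 rose on WPI and none fell, with Ppara at 0.43 ± 0.10, Nr1h3 at 0.21 ± 0.05 and Rxra, the partner of both receptors, at 0.13 ± 0.03 (adjusted p = 0.00239). Of 11 aryl hydrocarbon receptor genes 0 rose and 1 fell on WPI (Cyp1b1, -0.48 ± 0.14), and 4 rose and 1 fell with fat on CAS. Among other Cyp3a genes Cyp3a44, at a mean of only 1.18 CPM, went the other way from the called members. It was lower on WPI averaged over fat by -0.852 ± 0.243 (adjusted p = 0.00933). From FAT-20 to FAT-55 on CAS Cyp3a44 fell by -1.87 ± 0.403 (adjusted p = 0.000417). Cyp3a59 passed in neither comparison in the jejunum (0.192, adjusted p = 0.435, and 0.475, adjusted p = 0.181).

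In the liver these shares were 14.7%, 43.3% and 26.6% of all genes. The same target list had 27 tested genes there, of which 16 rose and 5 fell from FAT-20 to FAT-55 on CAS (median 0.78) and 15 rose and 3 fell on WPI (median 0.59). More members of the list rose than fell on both proteins, while Cyp3a11 was called on CAS alone. Gstm3, a glutathione transferase, rose by 2.93 ± 0.25 on CAS and was lower on WPI by -1.59 ± 0.13, and Gstm1 was lower on WPI by -0.57 ± 0.07. For WPI against CAS 3 target genes rose and 7 fell (median -0.01). Cyp3a59, a further Cyp3a gene and the only one of 6 tested there, rose by 2.02 ± 0.20 with fat on CAS (adjusted p = 2.26e-12) and was lower on WPI by -0.45 ± 0.11 (adjusted p = 0.00216). Of 9 electron donors 5 fell and 0 rose on WPI, with Pgrmc2 at -0.29 ± 0.04 and Pgd at -0.29 ± 0.06, while 4 rose and 1 fell with fat on CAS. Nr1h4, the bile acid receptor FXR, rose on WPI by 0.27 ± 0.05 and fell with fat on CAS by -0.36 ± 0.08. In the aryl hydrocarbon receptor pathway, beside the opposite values of Cyp1a1 and Cyp1a2, Ahr rose by 0.25 ± 0.08 and Tiparp, a target of the receptor, by 0.26 ± 0.07 on WPI. None of the 12 haem genes was called for WPI against CAS in the liver.

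Within diets, the jejunum members varied together. After subtracting diet means, all 15 pairs of the 6 tested genes correlated across the 70 libraries, with Pearson's r from 0.511 (Cyp3a25 with Por) to 0.868 (Cyp3a13 with Nr1i2) and adjusted permutation p at most 3e-05 over the 15 pairs, most at the smallest value that 100000 permutations can give. Spearman's rho for these 2 pairs was 0.553 and 0.858. Without the 2 libraries farthest from the median, r was 0.537 and 0.856. Many other genes also followed the members. Over 14235 other genes with a mean of at least 1 CPM, the 99th percentile of r ran from 0.732 (Cyp3a11) to 0.787 (Cyp3a13). Cyp3a25 with Por lay below the percentile of either gene (0.770 and 0.785). How many pairs of other genes would pass was not computed. Over 24 stem means, 14 of 15 pairs were still called, all but Cyp3a25 with Por (0.371, adjusted p = 0.092). The jejunum members also followed the enterocyte score, with r from 0.567 for Cyp3a25 to 0.860 for Cyp3a13, all 6 passing, and 5 of the 6 over stem means (all but Cyp3a25, adjusted p = 0.052). With the smooth muscle score 4 members correlated negatively, from -0.320 for Cyp3a11 to -0.477 for Cyp3a25, and none passed over stem means. The part of the enterocyte level in these correlations was not tested.

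The liver members formed no single block. Of 28 pairs 14 passed by Pearson's r, 11 of them also by Spearman's rho, and 8 over stem means. Nr1i2 and Por were most alike (r = 0.870, rho = 0.895, 0.866 without the 2 farthest libraries, adjusted permutation p = 5.6e-05), followed by Nr1i3 with Por (0.757), Cyp3a13 with Nr1i2 (0.728) and Cyp3a13 with Por (0.706). The 99th percentile of r over the other liver genes was 0.795 for Por, 0.752 for Nr1i2, 0.695 for Nr1i3 and 0.660 for Cyp3a13. Nr1i2 with Por lay above the percentiles of both genes. Nr1i3 and Cyp3a13 with Por lay below that of Por, and Cyp3a13 with Nr1i2 below that of Nr1i2. Cyp3a11 stood apart from these genes, with r = 0.238 to Nr1i2 (adjusted permutation p = 0.095) and 0.144 to Por (0.34). In the jejunum the same 2 pairs had r = 0.799 and 0.777. The diet-centred values of liver Nr1i2 and Por ran without large gaps. Between neighbouring libraries the widest was 0.122 of a range of 1.57 for Nr1i2 and 0.196 of 2.65 for Por, on the log2 scale. For Cyp3a11 it was wider, 0.299 of 2.84 in the liver and 0.345 of 2.965 in the jejunum. Hepatocyte markers were correlated with Nr1i2 (0.518), Cyp3a13 (0.456) and Por (0.423), the 3 of 16 relations with marker scores that passed, and none of them passed over stem means.

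**Figure D4:**
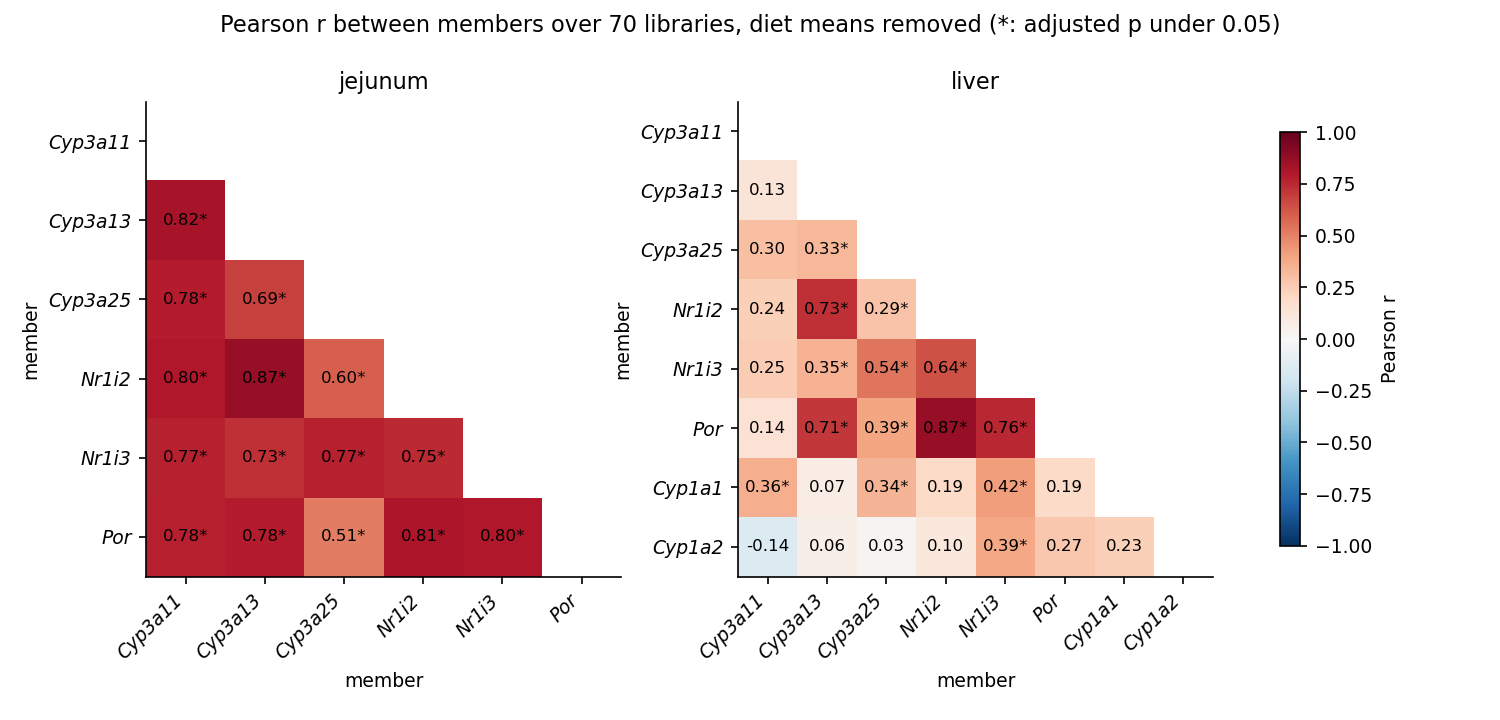
Pearson's r (colour and number) between members after subtracting diet means, over 70 jejunum and 70 liver libraries, with a star where the adjusted permutation p passed. All 15 jejunum pairs lie at 0.511 or above, while in the liver Cyp3a11, Cyp1a1 and Cyp1a2 have mostly low values.

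The same libraries differed in clock gene levels, and the labels give no time of sampling. Over the livers Nr1d1 ranged from 11.2 to 202 CPM and Per2 from 9.46 to 137. In the jejunum the ranges were 26.0 to 183 and 18.3 to 179 CPM. With 12 clock genes, a list chosen after the members' values were known, liver Por had r = 0.866 to Per2 and -0.851 to Npas2, Nr1i2 had -0.811 to Nr1d1, Nr1i3 had 0.779 to Per2 and Cyp3a13 -0.770 to Nr1d1. Liver Npas2 was near the floor, from 0 to 3.06 CPM with group medians of 0.123 to 0.438, where 3 reads correspond to 0.0733 to 0.157 CPM. The strongest value for liver Cyp3a11 was 0.390 (Cry1) and for Cyp1a2 0.351 (Nr1d2). In the jejunum Por had r = 0.839 to Per2, Nr1i3 0.676 to Tef, Nr1i2 0.671 to Per1, Cyp3a11 0.618 and Cyp3a13 0.588 to Cry1, and Cyp3a25 0.355 to Nr1d2. In all, 53 of 72 jejunum and 69 of 96 liver relations passed a permutation test adjusted within the tissue, 39 and 44 over stem means. How often other genes are related to these clock genes was not computed, so the counts are not shown to be particular to the members.

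Few clock genes were called between the diets, although some fitted differences were large and imprecise. Npas2 in the liver was -1.27 ± 0.68 for WPI against CAS at FAT-55 (adjusted p = 0.207), with medians of only 0.145 and 0.438 CPM. Arntl in the jejunum was -0.70 ± 0.33 in that comparison (0.266). None of the 12 clock genes was called for WPI against CAS in either tissue. For FAT-55 against FAT-20 only Clock was called in the jejunum (0.26 on CAS and 0.31 on WPI) and only Per1 in the liver (-0.54 on CAS, adjusted p = 0.0441). With Arntl and Dbp as covariates 1 of the 4 jejunum members called for WPI against CAS remained (Cyp3a13, 0.34, adjusted p = 0.0248), and with Nr1d1 added none did (Cyp3a11 0.37, adjusted p = 0.110, and Por 0.18, adjusted p = 0.0942). Jejunum Por still rose with fat, by 0.70 on CAS (adjusted p = 0.000338) and 0.66 on WPI (7.2e-05). With the same 3 covariates liver Por and Nr1i2, which were not called otherwise, were lower at FAT-55 than FAT-20 on CAS, by -0.66 (adjusted p = 8.9e-06) and -0.39 (0.000606), and liver Cyp3a11 was higher by 0.99 (0.000347). These covariates were chosen after the data had been seen, Nr1d1 after its correlation with liver Nr1i2 and after the first version with Arntl and Dbp.

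In the same mouse, the receptors and Por varied together across the tissues. Over 70 mice the diet-centred jejunum and liver levels had r = 0.820 for Nr1i2 (rho = 0.827), 0.762 for Por (0.797), 0.499 for Nr1i3 (0.493), 0.444 for Cyp3a25 (0.489), 0.416 for Cyp3a13 (0.444) and 0.327 for Cyp3a11 (0.301). All 6 passed the permutation test, with adjusted p from 2e-05 for Nr1i2, Nr1i3 and Por to 0.0057 for Cyp3a11. The correlation between the tissues was not computed for other genes, so it is not shown to be particular to the members. The r values below are in the same order of genes. Without the 2 mice farthest from the median they were 0.830, 0.772, 0.466, 0.522, 0.407 and 0.306. Over stem means Cyp3a11 no longer passed (0.299, adjusted p = 0.22) and the other 5 did. The column names carry library numbers, and 1 mouse had different numbers in the tissues. The number of its liver library belongs to another mouse among the samples not used here. Its 2 libraries may therefore not come from 1 animal. Without this mouse r was 0.822 for Nr1i2 and 0.328 for Cyp3a11. The test of jejunum minus liver used all 70 mice.

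**Figure D5:**
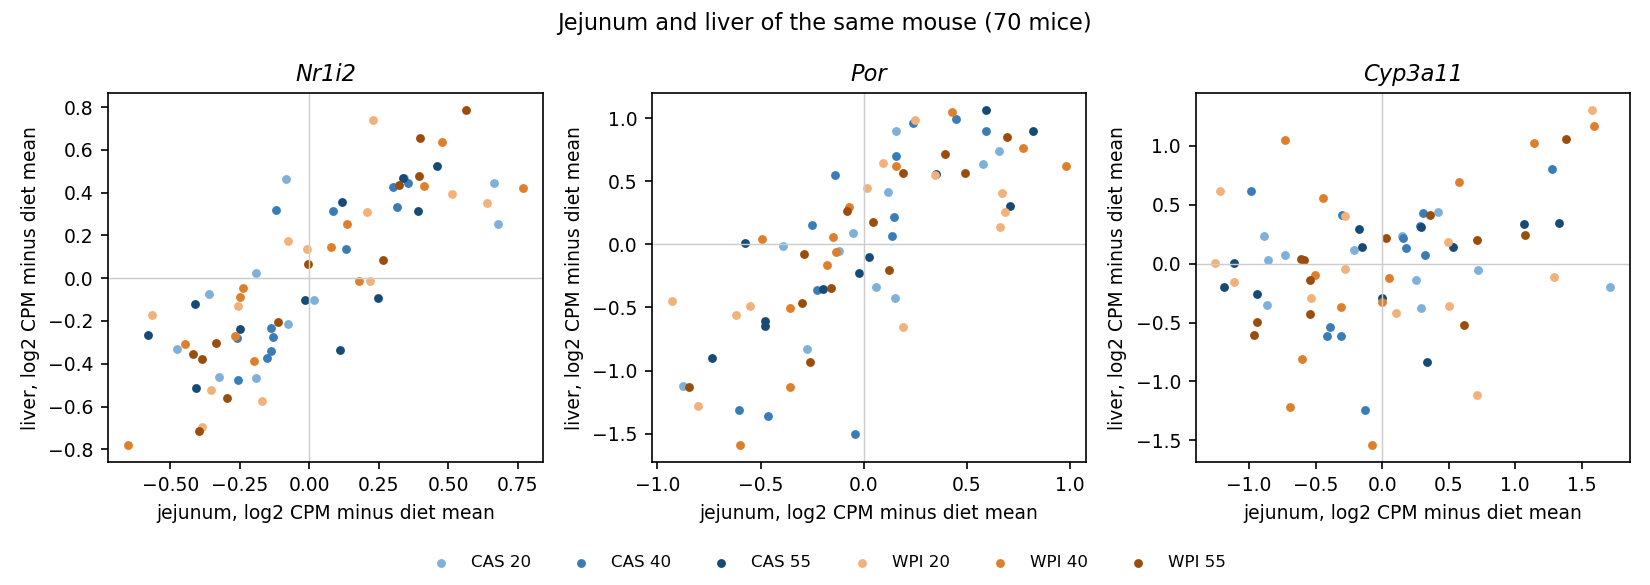
Log2 CPM minus the diet mean in jejunum (x axis) against liver (y axis) for Nr1i2, Por and Cyp3a11, 1 point per mouse (70 mice), coloured by diet. Nr1i2 and Por follow a line (r = 0.820 and 0.762) and Cyp3a11 is loose (r = 0.327).

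Part of the spread followed the identifier stems. The intraclass correlation by stem was 0.732 for liver Por, 0.612 for Cyp3a13, 0.585 for Nr1i3, 0.507 for Cyp3a11, 0.486 for Nr1i2, 0.224 for Cyp1a2, 0.201 for Cyp1a1 and 0.180 for Cyp3a25, against a consensus of 0.160 over all liver genes. In the jejunum it was 0.546 for Por and 0.202 to 0.377 for the other 5, against 0.114. Of the 22 calls of members over both tissues, 3 held with counts summed by stem (liver Cyp3a11 and jejunum Por on CAS and on WPI, all FAT-55 against FAT-20), and 11 held with the stem as a random effect.

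The genes most like each member across libraries, after diet means were removed, were found among genes with a mean of at least 1 CPM. In the jejunum these were Osbpl1a for Cyp3a11 (r = 0.875), Clrn3 for Cyp3a13 (0.889), Treh for Cyp3a25 (0.895), Atl2 for Nr1i2 (0.943), Mme for Nr1i3 (0.908) and Naa60 for Por (0.923). In the liver they were Gstm1 for Cyp3a11 (0.701), Bhmt2 for Cyp3a13 (0.835), Cyp3a59 for Cyp3a25 (0.789), Fmo5 for Nr1i2 (0.907), Tomm40l for Nr1i3 (0.897), Rhbdd2 for Por (0.949), Vldlr for Cyp1a1 (0.641) and Pla1a for Cyp1a2 (0.784). The 99th percentile of r over the 12359 other liver genes was 0.471 for Cyp3a11 and 0.795 for Por. Tomm40l shares exonic bases with Nr1i3, and the part of this overlap in their correlation was not tested. Cyp3a59 is a close relative of Cyp3a25, and reads of these genes cannot always be told apart.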

How the data were processed

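RNA-seq of jejunum and liver was used, 140 of the 207 samples of the series, 70 per tissue. The deposited values are whole-number read counts per Ensembl gene made by the authors. Per the submitters' processing notes the reads were handled with cutadapt, FastQC, Trim Galore 0.61 and STAR on GRCm38, and DESeq2 1.24.0 is named. The strand setting and annotation release are not given in the sources used here. Reads counted for no gene, among them 6.34% (jejunum) and 5.6% (liver) outside annotated genes, were left out of library sizes. Symbols and coordinates came from GENCODE M21, with 86 identifiers unnamed.

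Each tissue was fitted in edgeR 4.0.16 (R 4.3.3; limma 3.58.1 and DESeq2 1.42.0 for alternatives) with filterByExpr (minimum count 10, total 15), TMM scaling, 1 coefficient per diet and the quasi-likelihood test. This left 16992 jejunum and 15051 liver genes. P-values were two-sided and Benjamini-Hochberg adjusted over all genes of a comparison, called under 0.05. The fit was tested on simulated counts drawn independently for each library, so that test does not cover dependence between mice of 1 stem. CPM are counts per 1e6 reads after TMM, and CPM per kb divides by the principal transcript's length. Correlations used log2 CPM (prior count 0.5) minus the diet mean, with 100000 two-sided permutations within diets, adjusted within each family. The labels name 70 animals, each with 1 jejunum and 1 liver library, but not their cage or litter.

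The members and gene lists were chosen with earlier results of these data known. Beside the members, the text names genes among the 3 with the smallest adjusted p per list for WPI against CAS or FAT-55 against FAT-20 on CAS, and the most similar gene per member; a gene the rule picks is not reported here. Alternatives covered scaling, the low-count filter, DESeq2, identifier stems, quality weights, marker covariates and each library left out. The clock genes, their 2 sets of covariates, and the fits without the liver library high in pancreas markers and without 1 mouse, and the test of jejunum minus liver in the same mouse, were chosen after seeing the data. The other 67 samples of the series were not used here.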

Additional observations from a re-analysis of the deposited data

Results flagged for a closer look

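The fat response of liver Cyp1a2 differed between the proteins by the test of the difference itself. From FAT-20 to FAT-55 it was -0.37 ± 0.15 on CAS and 0.28 ± 0.14 on WPI, a difference of 0.652 on the log2 scale (WPI minus CAS, edgeR adjusted p = 0.0437). Group means went from 317 to 245 CPM on CAS and from 312 to 379 CPM on WPI. The adjusted p was 0.0813 without the filter on low counts, 0.235 with counts summed by stem and 0.326 with marker covariates, and it reached 0.0708 when CAS FAT-20 replicate 5 was left out.

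The WPI against CAS difference of 2 members was not the same in jejunum and liver of the same 70 mice, by a permutation test of jejunum minus liver. The test was added after both values of Cyp3a11 had been seen, and it kept the mouse whose library numbers differ between the tissues. For Cyp3a11 the contrast was 1.03 on the log2 scale (adjusted permutation p = 6e-05, and 0.0091 over stem means), with 0.57 in jejunum and -0.46 in liver. In edgeR the liver difference of Cyp3a11 alone was not called, and its jejunum call was lost with counts summed by stem. For Cyp3a25 it was 0.277 (adjusted permutation p = 0.018), with 0.21 in jejunum and -0.06 in liver, and it did not pass over stem means (adjusted p = 0.057).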

How the results depend on the processing

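Of the 168 fitted member values 22 were called. Median-of-ratios scaling kept all 168 on their side of the threshold. DESeq2 kept the 22 calls and added 2, and gave an adjusted p for 167 values. Counts summed by stem lost 19 of the 22 calls, the stem as random effect 11 and marker covariates 16. The numbers of members called moved as follows. Jejunum WPI against CAS (4 called) gave 0 with stem sums, 1 with the stem as random effect, 1 with quality weights, and 1 and 0 with 2 and 3 clock genes; at FAT-20 (0) marker covariates gave 2. Jejunum FAT-40 against FAT-20 on CAS (3) gave 0 with stem sums, 0 with markers and 1 with either clock set. On WPI (1) it gave 0 without the filter, with stem sums, with the stem as random effect and with markers, 3 with quality weights, 2 with either clock set, and 0 to 2 leaving out 1 library. Jejunum FAT-55 against FAT-20 on CAS (3) gave 1 with stem sums, 1 with markers (Cyp3a11, newly called as lower, none of the 3) and 1 with 3 clock genes, and 1 at the lowest leaving out 1 library. On WPI (2) it gave 1 with stem sums, 4 with quality weights, 0 with markers, 1 with 3 clock genes, and 1 to 4 leaving out 1 library.

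Liver WPI against CAS (2) gave 0 with stem sums, 5 with quality weights, 1 with markers, and 4 at the highest leaving out 1 library. At FAT-40 (1) it gave 0 without the filter, with stem sums, stem as random effect, quality weights, without the library high in pancreas markers, and at the lowest leaving out 1 library. At FAT-55 (2) it gave 0 with stem sums and with markers. Liver FAT-40 against FAT-20 (0) gave 2 and 3 with 2 and 3 clock genes on CAS, and 1 and 2 on WPI, where leaving out 1 library gave at most 1. FAT-55 against FAT-20 on CAS (3) gave 1 without the filter, with stem sums and with the stem as random effect, 0 with markers, 5 with either clock set, and 1 at the lowest leaving out 1 library. On WPI (0) it gave 1 with quality weights, 1 with markers and 2 with 3 clock genes. FAT-55 against FAT-40 on CAS (0) gave 2 with quality weights. The difference at FAT-55 (1) gave 0 without the filter, with stem sums, stem as random effect and markers, 2 with DESeq2 and either clock set, and 0 to 2 leaving out 1 library. Liver correlations (14) gave 8 over stem means. Jejunum Nr1i3 at FAT-40 against FAT-20 on CAS turned to -0.076 with marker covariates (adjusted p = 0.900). The cause of these changes was not tested. No paired analysis was possible because each mouse had 1 diet and the replicate numbers follow accession order, so no 2 diets share an animal; the tissues of a mouse were paired, and of the 2 members called there 1 was called over stem means. Depth limits Cyp1a1, at 1 to 45 reads per liver.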
